A study of Mus musculus with 10 samples.

Results

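Cytosolic ribosomal proteins are the proteins that, together with ribosomal RNA, make up the small and the large subunit of the ribosomes outside mitochondria. The genes were taken by symbol: Rpl or Rps followed by digits and, where present, an ending a, al, l, l1 or x, joined by the stalk genes Rplp0, Rplp1 and Rplp2 and by Rpsa. Pseudogene symbols with -ps and the kinase genes named Rps6k were left out. The rule took 86 of 48321 symbols, 76 canonical genes and 10 paralogues (further copies of a canonical gene). They are called members, and the mean of their log2 levels in a library is called the module.

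The data were RNA-seq counts of spleen CD4+ T cells from C57BL/6 mice with a FoxP3-GFP reporter, sorted by GFP (taken as FoxP3) and surface CD25. The 10 libraries fell into 5 groups of 2: regulatory T cells (FoxP3+CD25+) and conventional cells (FoxP3-CD25-) from WT and from KO mice, and a FoxP3+CD25- population sorted from KO mice only. KO mice were Satb1 F/F with Thpok-cre, a Cre driven by a locus of CD4-committed cells, so that regulatory and conventional cells alike were targets of the deletion. The mice were 8 to 12 weeks old on average and of both sexes, and alleles of WT mice other than the reporter are not given in the sources used here. Library numbers were read as mice, 2 per genotype, each giving 1 library per population. The labels imply this without stating it, and p-values measure only the spread between these samples.

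Counts on genes were 7953332 and 8519546 in the WT FoxP3+CD25+ libraries, 12410064 and 9636537 in WT FoxP3-CD25-, 6581228 and 7489966 in KO FoxP3+CD25+, 6317356 and 9018519 in KO FoxP3+CD25-, and 6094952 and 7392967 in KO FoxP3-CD25-. Here and below, paired values are replicate 1 and then replicate 2. Members held 2.08% and 3.91% of these counts in WT FoxP3+CD25+, 4.12% and 3.65% in WT FoxP3-CD25-, 2.82% and 3.29% in KO FoxP3+CD25+, 2.49% and 3.22% in KO FoxP3+CD25-, and 2.50% and 2.93% in KO FoxP3-CD25-. The WT FoxP3+CD25+ pair thus spanned nearly the whole range of the series. Levels are CPM, counts scaled to library size with TMM factors. Of the 86 members, 81 passed edgeR's filter on low counts, 32 of the small subunit and 49 of the large subunit, and those not passing were Rpl10l, Rpl39l, Rpl3l, Rpl6l and Rps12l1.

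Each ribosome holds a single copy of nearly every canonical protein, and cells make these proteins at matched rates. Their messages begin with a C followed by a run of C and T, the terminal oligopyrimidine (TOP) motif, through which the kinase mTORC1 and the RNA-binding protein LARP1 control translation and stability of the whole family. Resting T cells are small and poor in ribosomes, and they build many more after activation.

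For 63 of the 86 members RefSeq start sites were at hand (75 entries, build GRCm38.p6). The base at the annotated start was C in 28% of these entries, against 16.3% of all 32851 entries, and a C starting at least 5 C or T in a row was found in 17.3%, against 2.51%. In the 300 bases around the start, the letters CTTTCC on either strand were found in 50.7% of member entries and 26.6% of all entries, and CCGGAAG, the core bound by ETS factors, in 34.7% and 8.86%. Such matches describe letters only, and annotated starts can lie some bases from the start a cell uses. Shown, 5′ to 3′, are the 20 bases before the annotated start and the 10 from it for 8 members named below. They show how the letters at the annotated start differ between members. They do not show which start the cells used, or whether a message lacks the motif. Capitals mark the start base and any C and T that follow it without a break. The windows lie at chr3:90213639-90213668 (Rps27, minus strand), chr7:4792945-4792974 (Rpl28, plus strand), chr9:120571497-120571526 (Rpl14, plus strand), chr2:26910787-26910816 (Rpl7a, plus strand), chr17:24720043-24720072 (Rps2, plus strand), chr5:107900508-107900537 (Rpl5, plus strand), chr5:115559447-115559476 (Rplp0, plus strand) and chr9:120127746-120127775 (Rpsa, plus strand).
Rps27: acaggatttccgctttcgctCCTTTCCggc
Rpl28: tcgtcccgcctctcgtgtctCTCTTTCCgt
Rpl14: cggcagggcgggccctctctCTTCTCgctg
Rpl7a: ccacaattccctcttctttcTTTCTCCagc
Rps2: tgcgtaggcagtcgagatctCgcgcttctt
Rpl5: ctctttctcacgtcgcttgcGtgctggtgg
Rplp0: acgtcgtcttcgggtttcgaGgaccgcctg
Rpsa: tggctgtgggttatttaaggAcgtcatttc
The annotated starts of Rps27, Rpl28 and Rpl14 lie on a C and that of Rpl7a on a T, each with C or T on both sides, and those of Rpl5, Rplp0 and Rpsa lie on G or A.

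Satb1, the targeted gene, had 378 and 477 CPM in WT FoxP3+CD25+, 816 and 879 in WT FoxP3-CD25-, 597 and 532 in KO FoxP3+CD25+, 1183 and 991 in KO FoxP3+CD25-, and 839.5 and 681 in KO FoxP3-CD25-. Satb1 counts were thus not lower in the FoxP3+CD25+ libraries labelled KO, and the FoxP3-CD25- libraries of both labels overlapped. Counts per gene do not resolve the deleted exons, so they do not check the label, and KO below stands for the libraries labelled KO. The sorted populations matched their gates: Foxp3 had 616 to 738 CPM in FoxP3+CD25+ libraries, 360.4 and 317 in KO FoxP3+CD25- libraries and 17.9 to 38.8 in FoxP3-CD25- libraries, and Il2ra, which encodes CD25, had 626 to 759, 16.8 and 16.7, and 1.54 to 11.4. All 10 markers of CD4 T cells passed the filter, with summed levels of 4661 to 6066 CPM, and Cd4 had the highest mean level of them over the libraries.

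The libraries of WT replicate 1 stood apart from all others. They held 14487 and 16362 counts of Xist and 0 of the Y-linked gene Ddx3y, while the other 8 libraries held at most 4 counts of Xist. For the members, WT FoxP3+CD25+ replicate 1 was the lowest library and WT FoxP3-CD25- replicate 1 the highest. All 81 members were lower in WT FoxP3+CD25+ replicate 1 than in replicate 2, by log2 gaps of −1.53 to −0.22 with a module gap of −0.94, and 39 of them (48.1%) differed by more than 2-fold, against 8.0% of all genes tested. In the other pairs the module gaps (replicate 1 minus 2) were smaller, though most members of a pair shared a direction. The gaps were 0.23 in WT FoxP3-CD25- (78 members higher in replicate 1), −0.19 in KO FoxP3+CD25+ (73 lower), −0.30 in KO FoxP3+CD25- (78 lower) and −0.15 in KO FoxP3-CD25- (71 lower). Of all genes, 48.2% to 51.7% were lower in replicate 1 of these pairs. Module differences and the main other values that rest on WT replicate 1 are therefore also given without its 2 libraries, an alternative added after seeing the data. Sex, mouse and library preparation cannot be told apart for this pair.

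On a scale per length, CPM per kb of transcript, the most abundant members were Rps27 at 1563, Rpl8 at 1531, Rps15 at 1473, Rplp2 at 1445 and Rps14 at 1441, means over the 10 libraries. Rps27 and Rps15 belong to the small subunit, Rpl8 lies near the catalytic centre of the large subunit, and Rplp2 is an acidic protein of the stalk that recruits elongation factors. Rpl4, a long protein lining the exit tunnel, had the most counts of any member (162663) and 1259 CPM per kb. The lowest canonical members per kb were Rpl24 at 3.37, Rpl21 at 22.1, Rpl13a at 22.7 and Rpl17 at 40.4. The cause of these low levels was not tested, and values on how reads were counted follow.

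Reads were 50 bases long, and reads that aligned to several places were kept out of the gene counts and tallied apart. The share of each transcript's 50-base words found in no other gene was therefore computed. It was 1.35% for Rps27, 18.3% for Rpl24 and 44.5% for Rpl21, which shares words with 82 other genes. Among canonical members the median level was 387 CPM per kb for the 6 with under 10% of words unique, 346 for the 21 with 10% to 25%, 379 for the 23 with 25% to 50%, 508 for the 18 with 50% to 75% and 773 for the 8 above 75%. The medians were higher only in the classes above 50%, Rps27, with the fewest unique words of the canonical members, was the highest of all, and Rpl24, Rpl21, Rpl13a, Rpl17 and Rpl23a lay far below the medians of their classes. Counts of members with many processed pseudogenes are uncertain in level. The 274 symbols of ribosomal protein pseudogenes held 50988 counts in all, beside 2611115 on members. The median log2 gap between the WT FoxP3+CD25+ replicates was −1.0, −0.88, −0.96, −1.15 and −0.88 in those classes, from the least to the most unique, and other differences between libraries were not split by uniqueness.

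**Figure D1:**
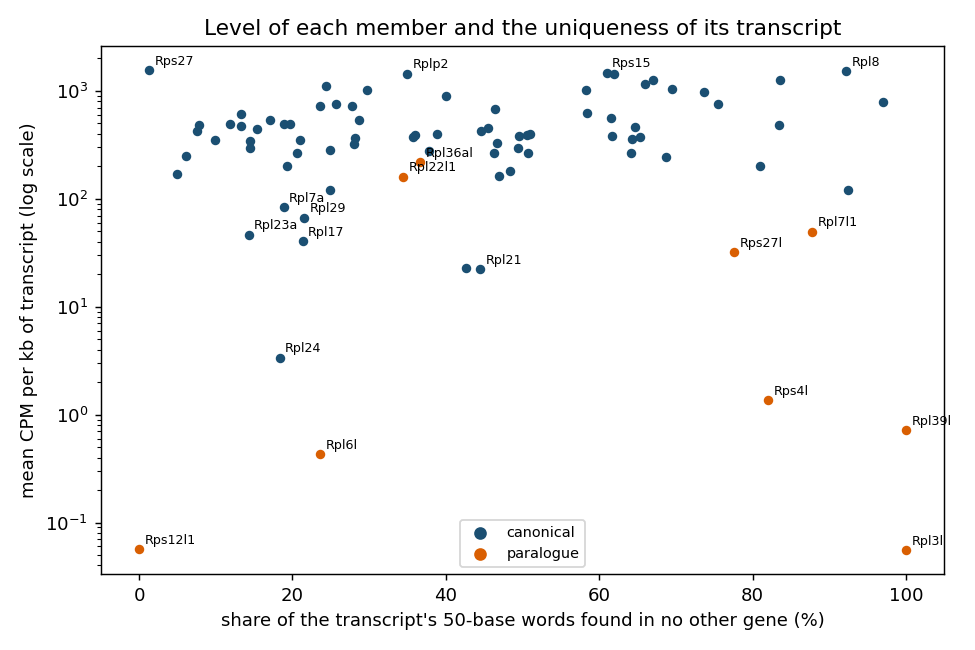
Mean level of each member over 10 libraries (CPM per kb of transcript, log scale) against the share of its 50-base words found in no other gene (%), for canonical members and paralogues (Rpl10l, with 0 counts, and 1 canonical member are not drawn). Most canonical members lie above 100 CPM per kb, and Rpl24, Rpl21, Rpl13a, Rpl17, Rpl23a, Rpl29, Rpl7a and all paralogues but Rpl22l1 and Rpl36al lie lower.

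The paralogues were detected at unequal levels. Rpl22l1, a copy of Rpl22, had 161 CPM per kb against 759 for Rpl22, and Rpl36al had 219 against 346 for Rpl36a. Rpl7l1 had 49.6 against 330.5 for Rpl7, and Rps27l, known as a target of p53, had 32.0 against 1563 for Rps27. Rps4l was near the floor at 1.36 (81 counts over all libraries) against 729 for the X-linked Rps4x. The tissue-restricted copies were close to absent: Rpl39l, known from testis, had 30 counts in all, Rpl3l, known from heart and skeletal muscle, had 7, and Rpl10l, known from testis, had 0 in every library. A count of 0 allows up to 3 counts, 0.242 to 0.492 CPM before scaling, and this floor covers counting error only. Rpl6l had 30 counts and Rps12l1, all of whose words occur in other genes, had 2.

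Members varied together. On the log2 scale (prior count 2) the module was 7.29 and 8.23 in WT FoxP3+CD25+, 8.31 and 8.08 in WT FoxP3-CD25-, 7.77 and 7.96 in KO FoxP3+CD25+, 7.60 and 7.89 in KO FoxP3+CD25-, and 7.62 and 7.76 in KO FoxP3-CD25-. Of the 4 WT libraries, 3 were above all 6 KO libraries, and WT FoxP3+CD25+ replicate 1 was below all of them. Group means were 7.76 ± 0.66, 8.20 ± 0.17, 7.86 ± 0.13, 7.74 ± 0.21 and 7.69 ± 0.10 in the same order (SD, n = 2). Differences between libraries in the mean of the members held 75.4% of the squared deviations of single members, and 68.7% without both libraries of WT replicate 1. Of the 81 members, 65 had their lowest level in WT FoxP3+CD25+ replicate 1, and 61 had their highest in WT FoxP3-CD25- replicate 1.

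**Figure D2:**
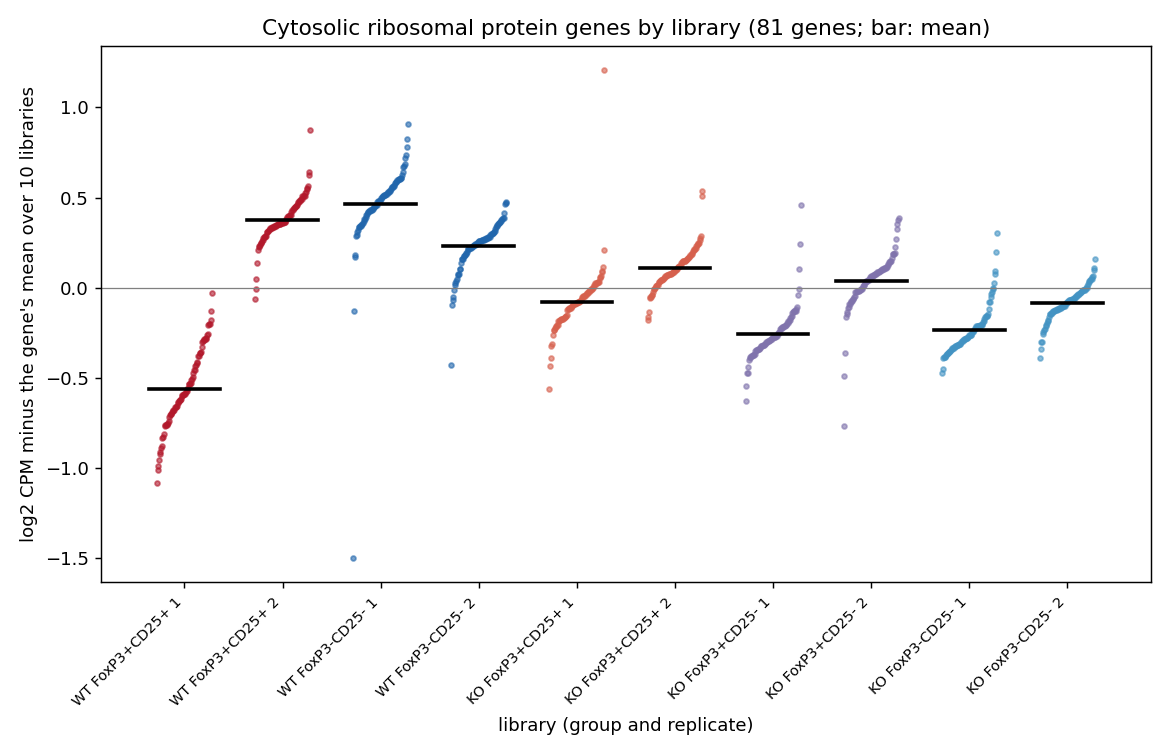
Log2 CPM of each of the 81 members minus its own mean over 10 libraries, by library, with a bar at the mean. The members of a library lie close together, and the mean is lowest in WT FoxP3+CD25+ replicate 1 (−0.56) and highest in WT FoxP3-CD25- replicate 1 (0.46).

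Single members seldom left this shared course. The SD of a member over the 10 libraries had a median of 0.34 on the log2 scale, and 0.12 once the module was subtracted. It was under 0.2 after subtraction for 68 members and over 0.3 for 3, which were Rps4l (0.91), Rpl21 (0.43) and Rpl24 (0.33). These had 81, 1682 and 188 counts over all libraries. Rps3, which lines the channel where the message enters the small subunit, and Rpl11 followed the module most closely, with an SD of 0.04 each. For Rps3 the values were 1005 and 1859 CPM in WT FoxP3+CD25+, 1974 and 1760.0 in WT FoxP3-CD25-, 1363 and 1557 in KO FoxP3+CD25+, 1288 and 1551 in KO FoxP3+CD25-, and 1275 and 1398 in KO FoxP3-CD25-. Rps3 thus had the same lowest and highest library as the module. The ratio of the highest to the lowest library was smallest for the paralogue Rpl7l1, at 1.40, and was 3.15 for Rpl31.

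By role, the mean deviation in WT FoxP3+CD25+ replicate 1 was −0.60 for the 32 members of the small subunit, −0.53 for 46 of the large subunit, −0.54 for the 3 stalk members and −0.45 for 5 paralogues, which are also counted in their subunits. In WT FoxP3-CD25- replicate 1 it was 0.45, 0.47, 0.53 and −0.11. Of the paralogues, Rpl22l1, Rpl36al and Rps27l were above their own means in that library, and Rpl7l1 and the sparse Rps4l below. The 4 X-linked members (Rpl10, Rpl36a, Rpl39 and Rps4x) deviated by −0.42 and 0.59 in these libraries of WT replicate 1, and the 77 others by −0.57 and 0.46.

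**Figure D3:**
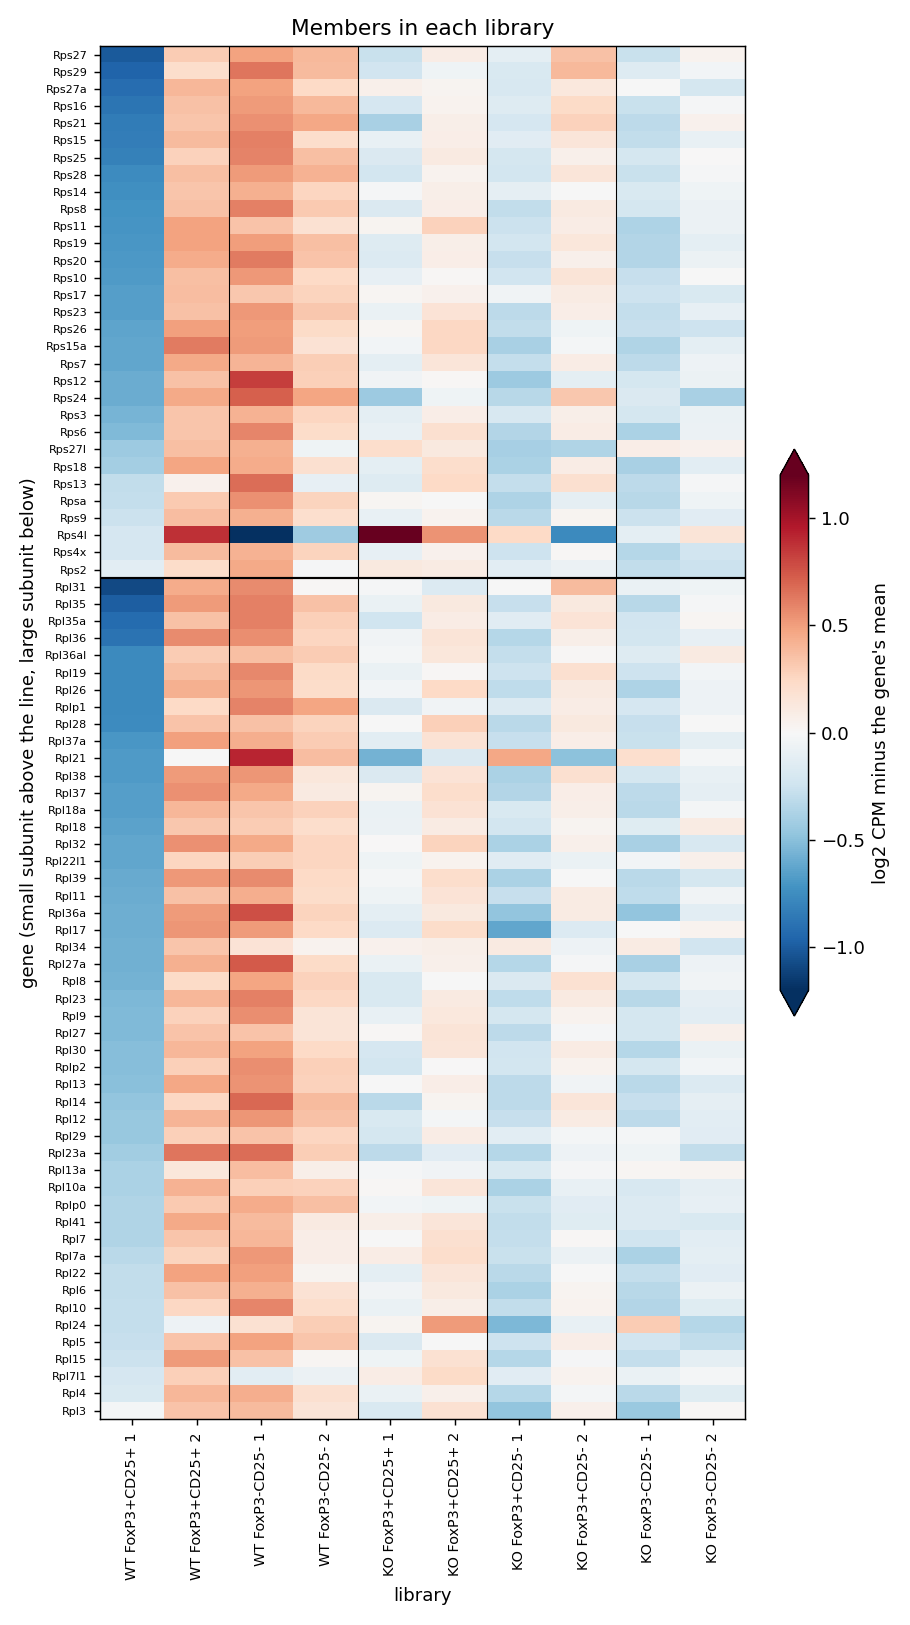
Log2 CPM of 80 of the 81 members minus their means over 10 libraries (colour), with small subunit members above the line and large subunit members below it, each sorted by the deviation in WT FoxP3+CD25+ replicate 1. That column is low for nearly all members, and Rps4l, Rpl21 and Rpl24 break the pattern of the columns.

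Of the 81 members, 78 had their highest group mean in WT FoxP3-CD25- and 3 in KO FoxP3+CD25+. The lowest group mean was that of KO FoxP3-CD25- for 43 members, WT FoxP3+CD25+ for 25, KO FoxP3+CD25- for 9, and WT FoxP3-CD25- and KO FoxP3+CD25+ for 2 each. This order rested on WT replicate 1: without its libraries the highest mean was that of WT FoxP3+CD25+ for 68 members and WT FoxP3-CD25- for 13, and the lowest that of KO FoxP3-CD25- for 60, KO FoxP3+CD25- for 14, KO FoxP3+CD25+ for 5 and WT FoxP3-CD25- for 2. Comparisons used two-sided quasi-likelihood tests in edgeR over 13796 genes, and FDR is the Benjamini-Hochberg adjusted p of that test, with 0.05 as the threshold. In none of the 8 comparisons did a member pass, and DESeq2 and the unadjusted p are given beside each count. In bulk libraries fewer cells of a type and less RNA per cell cannot be told apart, and an exact permutation test of 2 libraries against 2 could not reach below p = 0.333.

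**Figure D4:**
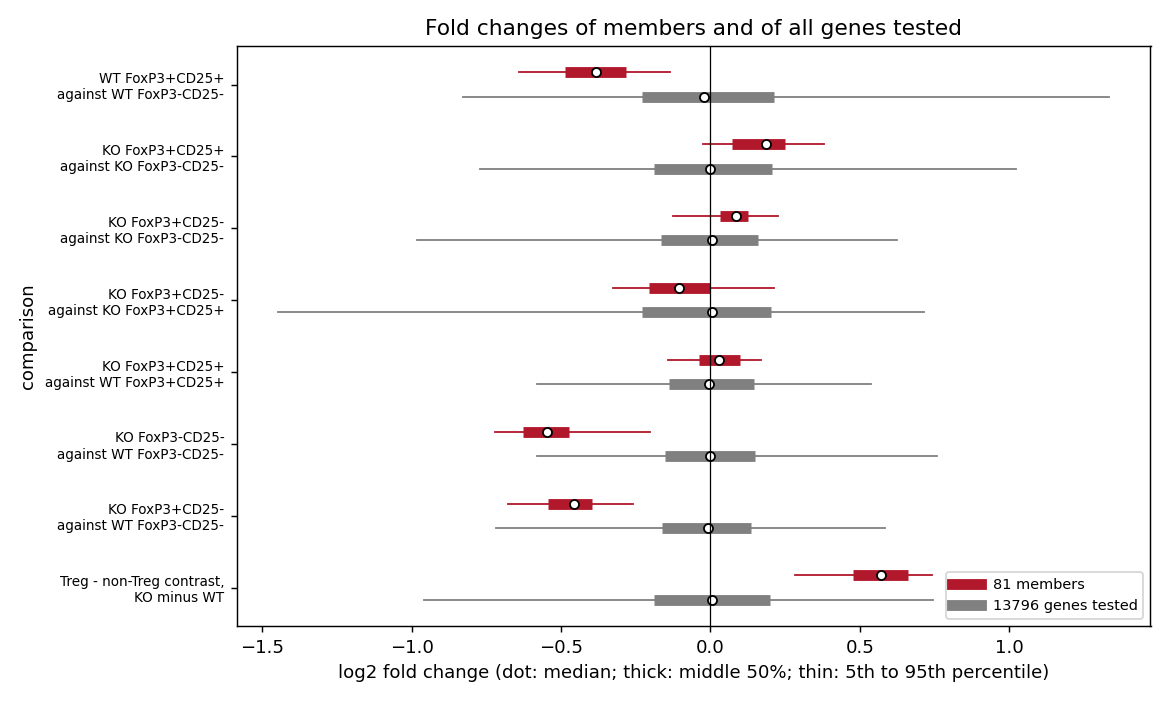
Log2 fold changes of the 81 members and of all 13796 genes tested in each comparison (dot, median; thick bar, middle 50%; thin bar, 5th to 95th percentile). The members lie left of 0 where WT FoxP3-CD25- cells are the reference, and right of 0 in the difference between the KO and the WT contrast.

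The comparison of WT FoxP3+CD25+ with WT FoxP3-CD25- cells asked how regulatory cells differ from conventional ones. The module was lower in regulatory cells, with a difference of −0.44 that did not exceed the pooled replicate SD of 0.48. Members had a median log2 fold change of −0.38 (−0.45 in the small and −0.36 in the large subunit) against −0.02 over all genes, and 79 were lower and 2 higher. The mice were opposed: in mouse 1 the regulatory library lay below the conventional one by a module difference of −1.03 with 80 of 81 members lower, and in mouse 2 it lay above by 0.15 with 67 members higher. The groups therefore overlapped for most members, and the libraries did not overlap for 14 lower and 1 higher, where 47.0% of all genes did not.

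In this comparison edgeR called 0 of 81 members and 10.9% of genes. At an unadjusted p under 0.05 there were 7 members (6 lower, 1 higher), against 21.9% of genes, and DESeq2 called 2, Rplp1 and Rpl21, both lower, among 10.1% of genes. With a block for the mouse, which pairs the libraries, edgeR called 8 members, all lower (Rplp1, Rps21, Rpl14, Rps29, Rps27, Rps25, Rpl21 and Rps28), among 19.1% of genes. The value rested on single libraries: without WT FoxP3+CD25+ replicate 1 the module difference was 0.03 and without both libraries of WT replicate 1 it was 0.15, each with 0 members called, and without WT FoxP3+CD25+ replicate 2 it was −0.91 with 66 members called lower, where 15.2% of genes were called. Rpl21 also passed without KO FoxP3+CD25- replicate 1 or 2, where 10.3% and 10.2% of genes did.

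Rpl21, a large subunit protein (chromosome 5, 146832890 to 146837032), had 11.6 and 18.7 CPM in WT FoxP3+CD25+ cells and 35.5 and 24.4 in WT FoxP3-CD25- cells. Both regulatory libraries were below both conventional ones (log2 fold change −0.98, SE 0.32, FDR = 0.0808, the lowest FDR of any member here). Its count is uncertain, since it shares words with 82 other genes. Rplp1, an acidic stalk protein (chromosome 9, 61913284 to 61914542), had 257 and 514 CPM against 659.6 and 604 (log2 fold change −0.71, SE 0.24, FDR = 0.101). Rpl14 (chromosome 9, 120571444 to 120574654) had 187 and 308 against 417 and 337 (log2 fold change −0.61, SE 0.23, FDR = 0.143). For each of these the groups did not overlap, and most of the distance lay in replicate 1. At the other end was Rps4l, with 0.766 and 1.89 CPM against 0.165 and 0.618 and a log2 fold change of 1.83, at levels near the floor.

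Between KO FoxP3+CD25+ and KO FoxP3-CD25- cells, the same contrast in the mutant, the module was higher in regulatory cells by 0.17, against a pooled replicate SD of 0.12. The median log2 fold change was 0.19 over members (0.18 small, 0.19 large subunit) and 0.00 over all genes, with 74 members higher and 7 lower. Both mice had this direction, with module differences of 0.15 (66 members higher) and 0.19 (75 higher). The libraries did not overlap for 37 higher and 2 lower members, where 46.5% of genes did not, so the separation of members was near that of genes at large. With edgeR 0 of 81 passed, where 6.34% of genes did, 1 member (higher) had an unadjusted p under 0.05, against 16.0% of genes, and DESeq2 called 0. The module difference was 0.27 without KO FoxP3+CD25+ replicate 1 and 0.08 without replicate 2.

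That member was Rps2, a small subunit protein at the message entry channel (chromosome 17, 24718116 to 24721929). It had 371 and 367 CPM in KO FoxP3+CD25+ cells and 279.8 and 287 in KO FoxP3-CD25- cells, with no overlap and close replicates (log2 fold change 0.38, SE 0.16, FDR = 0.246). It passed, as the only member, in a fit of the compared libraries alone and in a fit without both libraries of WT replicate 1, where 6.80% and 7.15% of genes passed. Rpl7a (chromosome 2, 26910764 to 26913318) had 80.2 and 86.8 CPM against 57.9 and 69.5 (log2 fold change 0.39, SE 0.20, FDR = 0.415). The lowest fold change was that of Rpl21, −0.45, with 12.6 and 16.6 CPM against 21.6 and 18.5, and the highest that of Rps4l, 0.99, with 2.44 and 1.44 against 0.825 and 1.05.

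KO FoxP3+CD25- cells, which carry FoxP3 without CD25, were compared with both KO populations from the same mice. Against KO FoxP3-CD25- cells the module differed by 0.05, less than the pooled replicate SD of 0.17, with a median log2 fold change of 0.09 over members (0.11 small, 0.07 large subunit) and 0.01 over all genes. There were 65 members higher and 16 lower. The module difference was −0.02 in mouse 1 (41 higher, 40 lower) and 0.13 in mouse 2 (69 higher), and it was 0.19 without KO FoxP3+CD25- replicate 1 and −0.10 without replicate 2. Libraries did not overlap for 3 higher and 4 lower members, against 39.3% of genes. None of the 81 members (0) passed in edgeR, where 1.67% of genes did, 0 had an unadjusted p under 0.05, where 10% of genes did, and DESeq2 called 0.

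The members of lowest p there were Rps27l, Rpl17 and Rps2, with FDR of 0.713, 0.841 and 0.868. Rps27l (chromosome 9, 66946086 to 66949516) had 11.8 and 12.1 CPM in KO FoxP3+CD25- cells and 16.5 and 16.2 in KO FoxP3-CD25- cells (log2 fold change −0.45, SE 0.27). Its replicates were close and the groups did not overlap, unlike its canonical copy Rps27, with 477 and 663 CPM against 432 and 533. Rpl17, which lies at the exit of the tunnel for the new chain, had 19.5 and 27.0 against 30.2 and 31.2 (log2 fold change −0.39, SE 0.31). Rps24 had the highest fold change, 0.31, with 246 and 389.8 CPM against 276 and 237, so the groups overlapped.

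Against KO FoxP3+CD25+ cells, the module of KO FoxP3+CD25- cells was lower, with a difference of −0.12 that did not exceed the pooled replicate SD of 0.17. The median log2 fold change was −0.10 over members (−0.09 small, −0.13 large subunit) and 0.00 over all genes, with 20 members higher and 61 lower. In the mice the regulatory library was above by 0.18 (66 members) and by 0.07 (55 members), and without KO FoxP3+CD25- replicate 1 the difference between the groups was 0.02, without replicate 2 −0.27. Libraries did not overlap for 15 lower members and 1 higher, against 49.3% of genes. The test of edgeR called 0 of 81, where 7.01% of genes did, 0 had an unadjusted p under 0.05, against 18.9% of genes, and DESeq2 called 0. Rps4l had the lowest FDR, 0.305, with 1.13 and 0.437 CPM against 2.44 and 1.44 (log2 fold change −1.38, SE 0.67). Rps27l followed with 11.8 and 12.1 against 18.1 and 17.0 (log2 fold change −0.55, SE 0.27, FDR = 0.307). Next by p was Rpl7a, with 62.4 and 71.4 against 80.2 and 86.8 (log2 fold change −0.32, SE 0.20, FDR = 0.464). All 5 paralogues tested were lower in KO FoxP3+CD25- cells, with a median of −0.20, and the highest member was Rpl21 (0.39), with 26.0 and 13.3 CPM against 12.6 and 16.6.

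For the effect of the KO label in regulatory cells, KO FoxP3+CD25+ cells were compared with WT FoxP3+CD25+ cells. The module difference was 0.11 against a pooled replicate SD of 0.48, and both KO libraries lay between the WT libraries. The median log2 fold change was 0.03 over members (0.05 small, 0.02 large subunit) and 0.00 over all genes, with 50 members higher and 31 lower. Libraries did not overlap for 1 member, which was higher, against 27.7% of genes. Of the 81, edgeR called 0, where 0.00725% of genes (1 gene) did, 0 had an unadjusted p under 0.05, against 4.29% of genes, and DESeq2 called 0. Without WT FoxP3+CD25+ replicate 1 the module difference was −0.36, and without replicate 2 it was 0.58, so the direction turned with the WT library kept.

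Every member in this comparison had an FDR of 1.0. Rpl23a, which docks chaperones and the signal recognition particle at the tunnel exit, had the lowest p and the lowest log2 fold change, −0.43 (SE 0.29). It had 20.1 and 22.8 CPM in KO and 18.6 and 39.1 in WT FoxP3+CD25+ cells. Rpl24, in a bridge between the subunits, had the highest, 0.51 (SE 0.40), with 2.28 and 3.27 CPM against 1.79 and 2.12, and rests on 188 counts over all libraries. Rpl28 had 285 and 348 CPM against 169 and 363 (log2 fold change 0.25, SE 0.28). For Rpl23a and Rpl28 the KO values lay between the WT values.

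In conventional cells the members were lower under the KO label. The module of KO FoxP3-CD25- cells was lower than that of WT FoxP3-CD25- cells by a difference of −0.51, larger than the pooled replicate SD of 0.14, and both KO libraries (7.62 and 7.76) were below both WT libraries (8.31 and 8.08). The median log2 fold change was −0.55 over members (−0.58 small, −0.54 large subunit, −0.55 stalk) and 0.00 over all genes, and the middle 50% of members lay between −0.63 and −0.47. The 5 paralogues tested had a median of −0.15 (0.03 without both libraries of WT replicate 1), with 2 higher and 3 lower. There were 79 members lower and 2 higher, while 49.5% of all genes were higher. Libraries did not overlap for 75 lower members and 1 higher, against 38.4% of genes. At an unadjusted p under 0.05 there were 32 members, all lower, against 8.02% of genes. By edgeR 0 of 81 passed the adjusted threshold, where 0.145% of genes (20 genes) did. DESeq2 called 2, Rpl5 and Rps4x, among 111 of the 10854 genes it tested here (1.02%).

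Rpl5, which carries a small ribosomal RNA into the large subunit and binds Mdm2 when free (chromosome 5, 107900502 to 107909005), had 429.7 and 411 CPM in KO and 705 and 638 in WT FoxP3-CD25- cells. Its replicates were close and the groups did not overlap (log2 fold change −0.68, SE 0.18, FDR = 0.255, the lowest FDR here). Rps4x, encoded on the X chromosome (102184941 to 102189394), had 549.7 and 596 against 933 and 839 (log2 fold change −0.63, SE 0.18, FDR = 0.279). Rpl10, also X-linked and among the last proteins to join the large subunit (74270812 to 74273135), had 296 and 342 against 566 and 438 (log2 fold change −0.65, SE 0.19, FDR = 0.309). The 4 X-linked members had a median of −0.67 and the 77 others one of −0.54.

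The lowest fold change was that of Rps24, −0.88, with 276 and 237 CPM against 512 and 432. The highest, 1.33, was again that of the sparse Rps4l. In a fit of the compared libraries alone 5 members were called lower (Rps24, Rpl5, Rplp1, Rpl14 and Rpl12), among 0.551% of genes, while leaving out any single library gave 0 calls. The module difference was −0.62 without WT FoxP3-CD25- replicate 2 and −0.39 without replicate 1, and −0.38 without both libraries of WT replicate 1, so the direction was kept. No scaling alternative (RLE factors, library size alone, TMM factors without the members) turned the sign of this or any other module difference.

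Markers of activated or memory T cells were read for these groups. All 16 passed the filter, and their summed levels were 1719 and 1122 CPM in WT and 2375 and 2462 in KO FoxP3-CD25- cells, with Itgb1 the most abundant, a median log2 fold change of 0.68 (1.47 without both libraries of WT replicate 1), 9 at an unadjusted p under 0.05, 0 called by edgeR and 2 by DESeq2 (Cd44 and S100a10). The 10 markers of cycling cells summed to 105 and 78.1 against 236 and 129 CPM, led by Mcm5 in WT and Mki67 in KO cells, with 4 at an unadjusted p under 0.05 and 0 called by edgeR or DESeq2. Both lists were higher in KO than WT FoxP3-CD25- cells. Of the 8 Treg markers, 7 were higher in KO than WT FoxP3-CD25- cells, with a median of 0.77 (1.19 without both libraries of WT replicate 1), 4 at an unadjusted p under 0.05, 0 called by edgeR and 2 by DESeq2 (Il2ra and Ikzf2). The share of reads that did not align uniquely was 26.2% and 27.7% of tallies in KO and 31.7% and 29.4% in WT FoxP3-CD25- cells. The part of these markers and of this share in the result was not tested. In KO FoxP3+CD25- cells activated or memory markers summed to 1160 and 800 CPM and cycling markers to 98.9 and 66.9. Against WT FoxP3-CD25- cells the activated or memory list had a median of −0.95 there (−0.43 without both libraries of WT replicate 1). Of its 16 genes edgeR called 4 lower (Cd44, Cxcr3, Nkg7 and Itgb1) and DESeq2 called 6. Whether these markers bear on the levels of the members was not tested in either population.

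The members of KO FoxP3+CD25- cells were compared with the same WT cells. Against WT FoxP3-CD25- cells, the module of KO FoxP3+CD25- cells was lower with a difference of −0.45, larger than the pooled replicate SD of 0.19, and both KO libraries (7.60 and 7.89) were below both WT libraries. This comparison shares its WT libraries with the one before. The median log2 fold change was −0.46 over members (−0.45 small, −0.46 large, −0.57 stalk) and −0.01 over all genes, with 79 members lower and 2 higher. Libraries did not overlap for 73 lower members and 0 higher, against 37.5% of genes. At an unadjusted p under 0.05 there were 22 members, all lower, against 8.80% of genes. By edgeR 0 of 81 passed the adjusted threshold, where 0.768% of genes did, and DESeq2 called 3, Rps12, Rpsa and Rplp0, among 1.57% of genes. The module difference was −0.30 without KO FoxP3+CD25- replicate 1 and −0.33 without both libraries of WT replicate 1, and Rplp0 passed in edgeR without WT FoxP3+CD25+ replicate 1 or 2, where 1.16% and 1.17% of genes did.

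Rpsa, a small subunit protein also known as the laminin receptor (chromosome 9, 120127689 to 120132369), had 326 and 390.1 CPM in KO FoxP3+CD25- and 614 and 508 in WT FoxP3-CD25- cells (log2 fold change −0.65, SE 0.19, FDR = 0.223). Rplp0, the base of the stalk (chromosome 5, 115559467 to 115563727), had 1128 and 1238 against 1854 and 1747 (log2 fold change −0.61, SE 0.18, FDR = 0.252). Rps12 (chromosome 10, 23785183 to 23787275) had 123 and 154 against 297 and 203 (log2 fold change −0.85, SE 0.26, FDR = 0.278), the lowest of all members. In each of the 3 both KO libraries were below both WT libraries. Rps4l was highest, at 0.94.

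The last comparison tested whether the contrast between regulatory (FoxP3+CD25+) and conventional cells differed between KO and WT. The difference of the module contrasts was 0.61, against a pooled replicate SD of 0.35 over the 4 groups. A contrast of 4 group means spreads more than a single difference between groups. These values are therefore not on the scale of the comparisons above. Members had a median of 0.57 (0.62 small, 0.53 large subunit) against 0.01 over all genes, and 80 of 81 were above 0. In edgeR 0 of 81 members and 0 of 13796 genes passed (0%), 3 members had an unadjusted p under 0.05, all above 0, against 4.97% of genes, and DESeq2 called 0 members. The value rested on WT FoxP3+CD25+ libraries: it was 0.14 without replicate 1, 1.08 with 24 members and 0.812% of genes called without replicate 2, and 0.02 without both libraries of WT replicate 1.

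Those of lowest p were Rps2, Rpl7a and Rpl10. Rps2 had 313 and 400.3 CPM in WT FoxP3+CD25+, 471 and 340.1 in WT FoxP3-CD25-, and the KO values given above (log2 difference 0.57, SE 0.22, FDR = 0.929). Its WT groups overlapped and its KO groups did not. Rpl7a (0.70, SE 0.28, FDR = 0.951) had 59.9 and 90.4 against 108 and 79.3 CPM in WT cells, and Rpl10 (0.65, SE 0.27, FDR = 0.969) had 309.9 and 448 against 566 and 438. Rplp0 was the only member, of 81, whose libraries separated without overlap in opposite directions in the 2 Treg contrasts, as did 5.88% of all genes. It had 1057 and 1690.1 against 1854 and 1747 CPM in WT and 1331 and 1313 against 1214 and 1268 in KO cells, and its difference did not pass (0.48, SE 0.26, FDR = 1.0). Rpl24 had the highest difference, 0.78, and Rps4l the lowest, −0.84.

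Other genes of the translation machinery were read beside the members. Rack1, a scaffold on the small subunit that the symbol rule does not take, had 1212 and 1319 CPM in KO and 1872 and 1698 in WT FoxP3-CD25- cells.

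The 8 elongation factors and related messages, most of which carry the TOP motif, also lay lower in KO than WT FoxP3-CD25- cells (median −0.53). There edgeR and DESeq2 called 0 of 8, and 6 had an unadjusted p under 0.05, against 8.02% of all genes. Eef1a1, the factor that delivers tRNAs, had 2825 and 3392 against 5266 and 4051 CPM. Eif5a, which helps elongation and termination, was the only one of the 8 called in any comparison: it rose in KO FoxP3+CD25+ over KO FoxP3-CD25- cells (log2 fold change 0.63, FDR = 0.0249) and fell in KO FoxP3+CD25- against KO FoxP3+CD25+ cells (−0.61, FDR = 0.0275). It had 504 and 436 CPM in KO FoxP3+CD25+, 315 and 292 in KO FoxP3-CD25- and 304 and 313 in KO FoxP3+CD25- cells. In the comparisons where it was called, 6.34% and 7.01% of all genes were called. Of 15 other TOP messages, with a median of −0.23 between KO and WT FoxP3-CD25- cells, 5 had an unadjusted p under 0.05 there, where edgeR called 0 and DESeq2 2 in opposite directions: Npm1 was lower in KO cells (278 and 297 against 535 and 379 CPM) and Vim higher (578 and 504 against 386 and 367). Among these 15, Vim alone was called by edgeR in any comparison. It was lower in KO FoxP3+CD25- cells than in KO FoxP3-CD25- (−0.75, FDR = 0.00845) and KO FoxP3+CD25+ cells (−0.46, FDR = 0.0347). Of all genes 1.67% and 7.01% were called there. The 7 TOP host genes of small nucleolar RNAs had medians of −0.29 in the WT contrast of regulatory against conventional cells, 0.34 in the KO contrast and −0.33 between KO and WT FoxP3-CD25- cells, with 0 called by edgeR or DESeq2 and 0, 2 and 2 at an unadjusted p under 0.05. Without both libraries of WT replicate 1, the medians between KO and WT FoxP3-CD25- cells were −0.32 for the elongation list, −0.13 for the other TOP messages and −0.21 for the host genes, and that of the host genes in the WT contrast was 0.19.

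Ribosome biogenesis factors, 39 of 40 of which passed the filter, had medians of −0.02, 0.15 and −0.29 in those comparisons. Without both libraries of WT replicate 1 the first was 0.13 and the last −0.24. In the last, with all libraries, edgeR and DESeq2 called 0 and 19 had an unadjusted p under 0.05, against 8.02% of all genes. Of the 39 factors, 2 fell in WT regulatory cells, where 10.9% of all genes were called, Wdr12 (−0.75, FDR = 0.0180) and Emg1 (−0.51, FDR = 0.0205), and 2 rose in KO regulatory cells, where 6.34% were, Nop58 (0.51, FDR = 0.0385) and nucleolin, Ncl (0.54, FDR = 0.0422). Of 22 regulators of ribosomal protein genes and TOP messages, edgeR called 2, Mxd1 and Larp1, in each contrast of regulatory and conventional cells. Of all genes 10.9% (WT) and 6.34% (KO) were called there. Mxd1, an antagonist of Myc, rose in regulatory cells of WT (1.29, FDR = 6.55e-05) and KO mice (1.41, FDR = 9.97e-05). Mxd1 also rose in KO FoxP3+CD25- cells over KO (0.78, FDR = 0.00997) and WT FoxP3-CD25- cells (0.61, FDR = 0.0493). It fell in them against KO FoxP3+CD25+ cells (−0.63, FDR = 0.00743). In these comparisons 1.67%, 0.768% and 7.01% of all genes were called. Larp1 rose in regulatory cells of WT (0.40, FDR = 0.0296) and KO mice (0.57, FDR = 0.00791), and was lower in KO FoxP3+CD25- than KO FoxP3+CD25+ cells (−0.39, FDR = 0.0484). It had 404 and 423 CPM in WT FoxP3+CD25+, 327 and 301 in WT FoxP3-CD25-, 394 and 363 in KO FoxP3+CD25+, 302 and 277 in KO FoxP3+CD25- and 264 and 247 in KO FoxP3-CD25- cells, without the dip of the members in WT FoxP3+CD25+ replicate 1. Between KO and WT cells of the same population the list's medians were 0.01 and 0.01, and edgeR and DESeq2 called 0 regulators. At an unadjusted p under 0.05 there were 0 (FoxP3+CD25+) and 1 (FoxP3-CD25-). In FoxP3-CD25- cells 11 regulators were higher and 11 lower under the KO label. Larp1 was among the lower ones (−0.30, SE 0.10, FDR = 0.436), with both KO libraries below both WT libraries.

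Of 63 initiation factors, 56 passed the filter and 2 rose in WT regulatory cells, against 10.9% of all genes called there, Eif2ak2, a kinase that slows initiation (0.63, FDR = 0.00725), and Eif4e3 (0.74, FDR = 0.0195). Eif4e3 also rose in KO regulatory cells (0.92, FDR = 0.0122), as did Eif5a, which is in both lists, and the list's median between KO and WT FoxP3-CD25- cells was −0.03, with 2 at an unadjusted p under 0.05 and 0 called by edgeR or DESeq2. The library means held 2.53% of the squared deviations of these factors, 7.15% of those of the regulators, 35.3% of biogenesis factors, 38.6% of mitochondrial ribosomal proteins, 54.0% of other TOP genes, 54.7% of snoRNA hosts, 55.0% of oxidative phosphorylation subunits, 59.9% of elongation factors and 75.4% of the members. Without both libraries of WT replicate 1 these were, in the same order, 11%, 8.11%, 40.6%, 8.98%, 62.3%, 46.2%, 22.8%, 67.9% and 68.7%. For the 4 ribosomal proteins outside the symbol rule, Rack1 among them, the share was 85.0%, and 82.7% with that omission. Such a share is larger in a shorter list even where genes vary independently. Lists of unlike size are therefore not ranked by it. Mitochondrial ribosomal proteins (76 of 77 passed) and nuclear-encoded subunits of oxidative phosphorylation (74 of 81 passed) had medians of −0.06 and −0.03 between KO and WT FoxP3-CD25- cells and of −0.23 and −0.21 in the WT contrast, which became 0.01 and 0.18 without both libraries of WT replicate 1. Neither edgeR nor DESeq2 called any of them in these comparisons, where 0 and 0, and then 9 and 5, had an unadjusted p under 0.05. Their mean deviations in WT FoxP3+CD25+ replicate 1 were −0.38 and −0.51, against −0.56 for the members, and in WT FoxP3-CD25- replicate 1 they were 0.14 and 0.16 against 0.46.

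**Figure D5:**
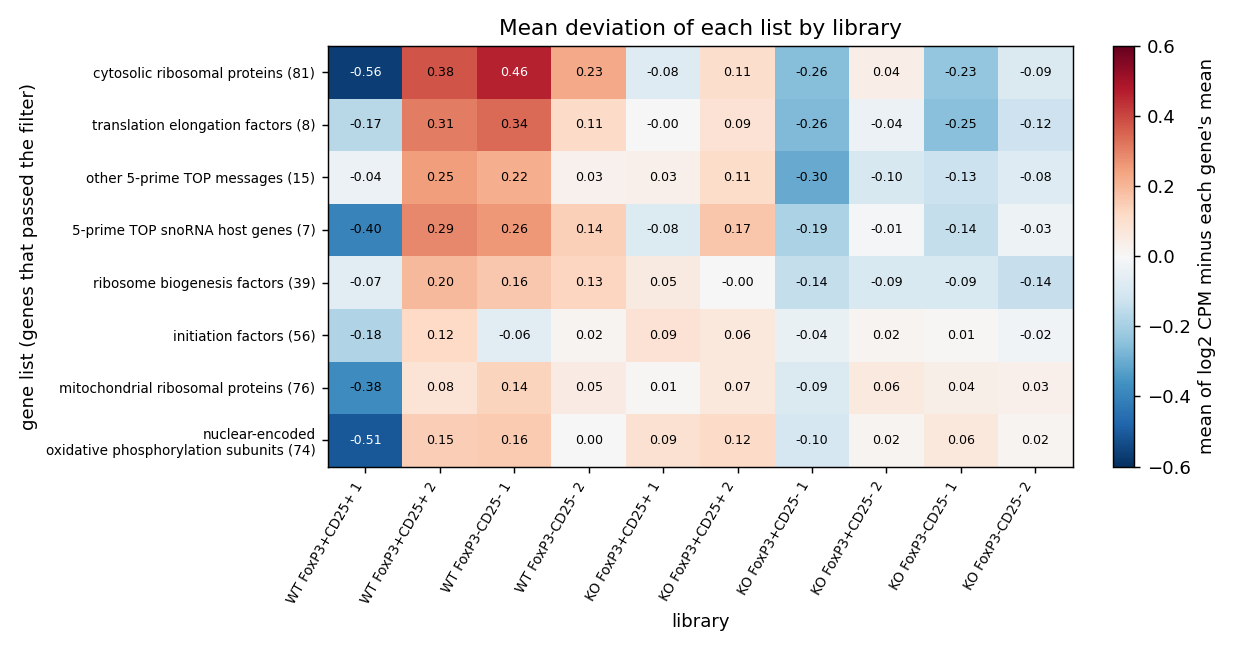
Mean deviation of log2 CPM from each gene's own mean (colour and value) for 8 gene lists in each library, with the number of genes that passed the filter. WT FoxP3+CD25+ replicate 1 is low in the cytosolic (−0.56) and mitochondrial (−0.38) ribosomal proteins and in the oxidative phosphorylation subunits (−0.51). Initiation factors range from −0.18 in that library to 0.12 in WT FoxP3+CD25+ replicate 2.

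Outside the members, 2020 genes with transcripts under 1000 bases deviated by −0.13 on average in WT FoxP3+CD25+ replicate 1, the 303 abundant ones among them (mean log2 CPM of at least 5) by −0.28, and genes of the longest class by 0.18. The share of HTSeq tallies for reads that did not align uniquely was 24.9% in that library and 28.7% in replicate 2, 31.7% and 29.4% in WT FoxP3-CD25-, 27.0% and 28.8% in KO FoxP3+CD25+, 25.4% and 28.0% in KO FoxP3+CD25-, and 26.2% and 27.7% in KO FoxP3-CD25-. Ranked by this share and by the module, no library differed by more than 2 places. Reads on no gene made up 42.5% of tallies in WT FoxP3+CD25+ replicate 1 and 34.4% in replicate 2, the highest and lowest of all libraries, with 42.0% in KO FoxP3+CD25- replicate 1 and 37.5% to 40.5% in the other 7. In that replicate 2, 10.5% did not align, against 3.57% to 4.42% elsewhere. The part of transcript length and of these shares in the levels of the members was not tested.

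Markers of other states and cells were read for the same libraries. Treg markers (8 of 8 passed) were called higher for 8 genes in WT and 7 in KO FoxP3+CD25+ against FoxP3-CD25- cells. The 8 naive T cell markers summed to 3382 and 4254 CPM in WT FoxP3+CD25+, 7711 and 7824 in WT FoxP3-CD25-, 3934 and 3867 in KO FoxP3+CD25+, 7074 and 7308 in KO FoxP3+CD25- and 7124 and 6741 in KO FoxP3-CD25-. Between KO and WT FoxP3-CD25- cells 7 of the 8 were lower, with a median log2 fold change of −0.13 (−0.27 without both libraries of WT replicate 1), 3 at an unadjusted p under 0.05, 0 called by edgeR and 1 by DESeq2 (Igfbp4). Both CD8 markers passed and summed to 9.36 to 16.6 CPM, led by Cd8b1. Sums below are over all markers of a list, passed or not. Of 11 B cell markers 6 passed, and the 11 summed to 674 and 458 CPM in WT FoxP3+CD25+ and 251 to 475 in all other libraries, led by Ighm, while Ms4a1 had 7 counts over all libraries. Of the 6, 4 were called higher in WT regulatory cells, 2 higher and 1 lower in KO regulatory cells, and 4 lower in KO FoxP3+CD25- than KO FoxP3+CD25+ cells. Between KO and WT FoxP3-CD25- cells edgeR called 0 of them and DESeq2 1 (Cd79b), and 3 had an unadjusted p under 0.05. The highest B cell sum was in the library with the lowest module. Of 5 plasma cell markers 1 passed (Xbp1, which T cells also express), with sums of 45.5 to 88.9 CPM and 1 count of Mzb1 in all. Of 13 myeloid markers 4 passed, with sums of 42.1 to 70.7 CPM led by Cst3, and S100a9 had 0 counts in every library and S100a8 3 in all. Of 5 NK cell markers 2 passed, with sums of 2.40 to 26.2 CPM, highest in FoxP3-CD25- libraries and led by Eomes, and Ncr1 had 4 counts in all. Of 5 erythroid markers 1 passed (Alas2), with sums of 0.744 to 3.35 CPM. The part of these cells in the levels of the members was not tested.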

How the data were processed

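Per the submitters' processing notes, HISAT2 (version 2.1.0) aligned the 50-base reads to mm10 (GRCm38) and HTSeq (version 0.11.1) counted reads. The deposited values are counts per gene symbol. HTSeq's tallies of unassigned reads (not unique, 24.9% to 31.7%, and on no gene, 34.4% to 42.5% of all tallies) stayed out of library sizes. All 10 libraries entered 1 edgeR model (version 4.0.16, with limma 3.58.1 and R 4.3.3) of group means: filterByExpr with a minimum count of 10 (13796 of 28262 symbols with a count kept), TMM factors, quasi-likelihood F-tests and Benjamini-Hochberg adjustment over all genes at 0.05, with 5 residual degrees of freedom and a biological coefficient of variation of 0.147. An SE is the fold change divided by the root of its F statistic. DESeq2 (version 1.42.0) was an alternative, and the steps were tested on simulated data. Lengths (shortest principal basic transcript, a choice made after lengths were seen) and shared 50-base words came from GENCODE M21.

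The members and gene lists were chosen with earlier results of these data known. Named are, per comparison, the 3 members of lowest p and those with the extreme fold changes, then the 5 highest and 5 lowest detected members per kb, paralogues with their canonical copies, the stalk genes and Rpsa, and called genes of the other lists. Some genes are not reported here. Rps3, Rpl4, Rpl11, Rpl13a, Rpl31, Rack1, Eef1a1 and the other members called under an alternative were named after their values were seen. Within a genotype, equal library numbers were read from the labels as 1 mouse, which gives the pairing. Their deviations from group means correlated at 0.303 in WT and 0.421 to 0.445 in KO across 13796 genes, which are not independent replicates, and at −0.0114 to 0.114 between genotypes. The set of genes was held fixed where libraries were left out.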

Additional observations from a re-analysis of the deposited data

How the results depend on the processing

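Members called and module differences were recomputed under 25 alternative settings. Of these, 2 were chosen after seeing the data, the omission of both libraries of WT replicate 1 (used also for the other lists, the shares of squares and the order of groups) and the restriction to members with at least 50% unique words. Group names are shortened here: Treg is FoxP3+CD25+, non-Treg is FoxP3-CD25-, and the third population is KO FoxP3+CD25-. The count of members called was 0 in all 8 comparisons as reported. Without the filter on low counts it was 4 in the WT contrast of Treg and non-Treg, where 5.98% of genes were called. It was 2 for KO over WT non-Treg and 2 for the third population over WT non-Treg, where 0.322% and 0.842% were. In the same 3 comparisons DESeq2 called 2, 2 and 3 members, among 10.1%, 1.02% and 1.57% of genes tested. Fits of the compared libraries alone called 1 in the KO contrast (Rps2, also the 1 called there without both WT replicate 1 libraries) and 5 for KO over WT non-Treg. The filter of CPM above 1, RLE factors, library size alone and TMM factors without the members called 0 throughout. The cause was not tested.

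With a block for the replicate number 4 members were called in the WT contrast, among 2052 genes (14.9%). With a block for the mouse 8 were called there, among 19.1% of genes. The block changed no other call of members. Among all genes, the replicate block called 403 for the third population over KO non-Treg (230 as reported), 4 for KO over WT Treg (1), 108 for KO over WT non-Treg (20), 217 for the third population over WT non-Treg (106) and 10 in the difference of contrasts (0). The block for the mouse called 2634 in the WT contrast (1504), 1649 in the KO contrast (874), 786 and 2090 for the third population over KO non-Treg and Treg (230 and 967) and 148 in the difference of contrasts.

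Each library was left out in turn, the gene set staying that of all libraries (a choice made after first counts), and a lone library was assumed to vary like the other groups. Members called ranged from 0 to 66 in the WT contrast (66 without WT Treg replicate 2, 1 without either replicate of the third population), from 0 to 1 for the third population over WT non-Treg (1 without either WT Treg replicate) and from 0 to 24 in the difference of contrasts (24 without WT Treg replicate 2), and stayed 0 in the other 5. The module difference ranged from −0.91 to 0.03 in the WT contrast (without WT Treg replicates 2 and 1), from 0.08 to 0.27 in the KO contrast (without KO Treg replicates 2 and 1) and from −0.10 to 0.19 and −0.27 to 0.02 for the third population over KO non-Treg and Treg (without its replicates 2 and 1). It ranged from −0.36 to 0.58 for KO over WT Treg and from 0.14 to 1.08 in the difference of contrasts (without WT Treg replicates 1 and 2), from −0.62 to −0.39 for KO over WT non-Treg (without WT non-Treg replicates 2 and 1) and from −0.60 to −0.30 for the third population over WT non-Treg (without its replicates 2 and 1). Without both WT replicate 1 libraries it was 0.15 in the WT contrast, −0.36 for KO over WT Treg and 0.0174 in the difference of contrasts. Leaving out KO non-Treg replicate 1 also turned the difference of the third population over KO non-Treg, to −0.0184. No choice of scaling, prior count, summary or members turned a module difference.

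Genes called, all at edgeR's FDR unless DESeq2 is named, ranged with libraries left out from 810 to 2102 in the WT contrast, 402 to 1016 in the KO contrast, 30 to 316 and 411 to 1185 for the third population over KO non-Treg and Treg, 1 to 2 for KO over WT Treg, 0 to 49 for KO over WT non-Treg, 19 to 161 for the third population over WT non-Treg and 0 to 112 in the difference of contrasts. For KO over WT non-Treg the 20 genes became 91 without the filter, 31 with library size alone, 76 in the compared libraries alone, 111 by DESeq2 and 11 without both WT replicate 1 libraries. For the third population, 230 over KO non-Treg became 411 without the filter and 366 by DESeq2, and 106 over WT non-Treg became 238, 217 and, without both WT replicate 1 libraries, 35. With that omission 706 genes were called in the WT contrast (1504 as reported). The 1 gene of KO over WT Treg became 5 without the filter, 5 by DESeq2, 0 in the compared libraries alone and 3 without both WT replicate 1 libraries, and the 0 of the difference of contrasts became 7 without the filter and 25 by DESeq2.

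Of the members, 5 with 0 to 30 counts over all libraries did not pass the filter, and Rps4l (81 counts) and Rpl24 (188) had the fewest of those that did. The part of depth was not tested.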
